A study of Sus scrofa with 17 samples.

Results

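The 8 genes described here encode receptors of 3 hormone systems that act on the pressure-loaded heart, together with 1 enzyme and 1 kinase of the same systems. They were chosen by symbol: the adrenergic receptor genes ADRB1, ADRA1A and ADRA1B, the receptor kinase gene GRK5, the angiotensin genes ACE and AGTR1, and the endothelin receptor genes EDNRA and EDNRB. They are 8 of 35670 genes in the count table. Each symbol stood on 1 row, and all 8 were among the 15884 genes with enough counts to be tested. The libraries hold RNA of right ventricular muscle from 17 pigs (Sus scrofa), 1 library per animal, and pressure overload of the right ventricle was shared by all 3 groups. The multidose group (n = 7) had been given mononuclear cells of umbilical cord blood repeatedly, the single dose group (n = 5) had received 1 dose, and the vehicle control group (n = 5) had received vehicle. The title gives the heart muscle wall as the site of administration. The labels give no strain, age, sex, dose size or time of harvest for single animals, and no group without overload was analysed here, so the levels below are all levels under load.

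Libraries held between 21754800 and 61144663 counts. Names beginning with M1 belong to 5 libraries (multidose 1 to 4 and single dose 1), and the other 12, all vehicle controls among them, are named M8 or M9. The names of all M8 and M9 libraries except multidose 5 and vehicle control 3 end in the suffix _R. Of the M1 names only that of multidose 4 does, so suffix and name class largely go together. No label explains the names. Of the 5 M1 libraries, 4 held under 25000000 counts, and 0 of the other 12 did. The M1 libraries stood apart from the rest across the transcriptome (14.0% of all genes, given with the comparison by name below), so each dose comparison is given for all 17 libraries and for the 12 M8 and M9 libraries alone. Cardiomyocyte markers summed to between 38626 and 69076 CPM (counts per 1000000 of the TMM-scaled library total) in the 17 libraries, against 58.2 to 268 CPM for leukocyte markers, and none of these markers was at 0 in any library.

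Noradrenaline from sympathetic nerves and circulating adrenaline bind adrenergic receptors on cardiac muscle. The beta-1 receptor (ADRB1) couples to cyclic AMP and raises heart rate and contraction, while the alpha-1 receptors (ADRA1A and ADRA1B) couple to phospholipase C and are studied for their part in muscle growth and survival. GRK5 phosphorylates agonist-bound receptors of this kind, which uncouples them from their G proteins. Angiotensin-converting enzyme (ACE), held mainly on endothelium, makes angiotensin II, whose type 1 receptor (AGTR1) acts on vessels and fibroblasts. Endothelin acts through a type A receptor (EDNRA), best known for constriction by smooth muscle, and a type B receptor (EDNRB), which is found on endothelium and clears the peptide. In human heart failure a loss of beta-1 receptors is well described.

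None of the 8 genes passed the test in any of the 3 dose comparisons. By edgeR's quasi-likelihood test with Benjamini-Hochberg adjustment over all genes, 0 of 8 were called for multidose against vehicle control, 0 for single dose against vehicle control and 0 for multidose against single dose, and 0% of all genes were called in each. DESeq2 and limma-voom also called 0 of the 8 in each comparison. At an unadjusted p under 0.05 stood 3 of 8 (ADRB1, ADRA1A and ACE) for multidose against vehicle control, where 12.6% of all genes did. For single dose against vehicle control 2 of 8 did (ADRA1A and ADRA1B), with 5.26% of all genes. Between multidose and single dose 0 of 8 did, with 2.11% of all genes. The comparisons with vehicle share the same 5 control libraries. Their median log2 fold change over the 8 genes was -0.24 for multidose and -0.16 for single dose, against -0.0051 and 0.0025 over all genes tested. In no dose comparison did the groups of any member fail to overlap, and the groups of 0.271%, 0.875% and 0.0693% of all genes did not overlap for multidose against vehicle, single dose against vehicle and multidose against single dose.

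**Figure D1:**
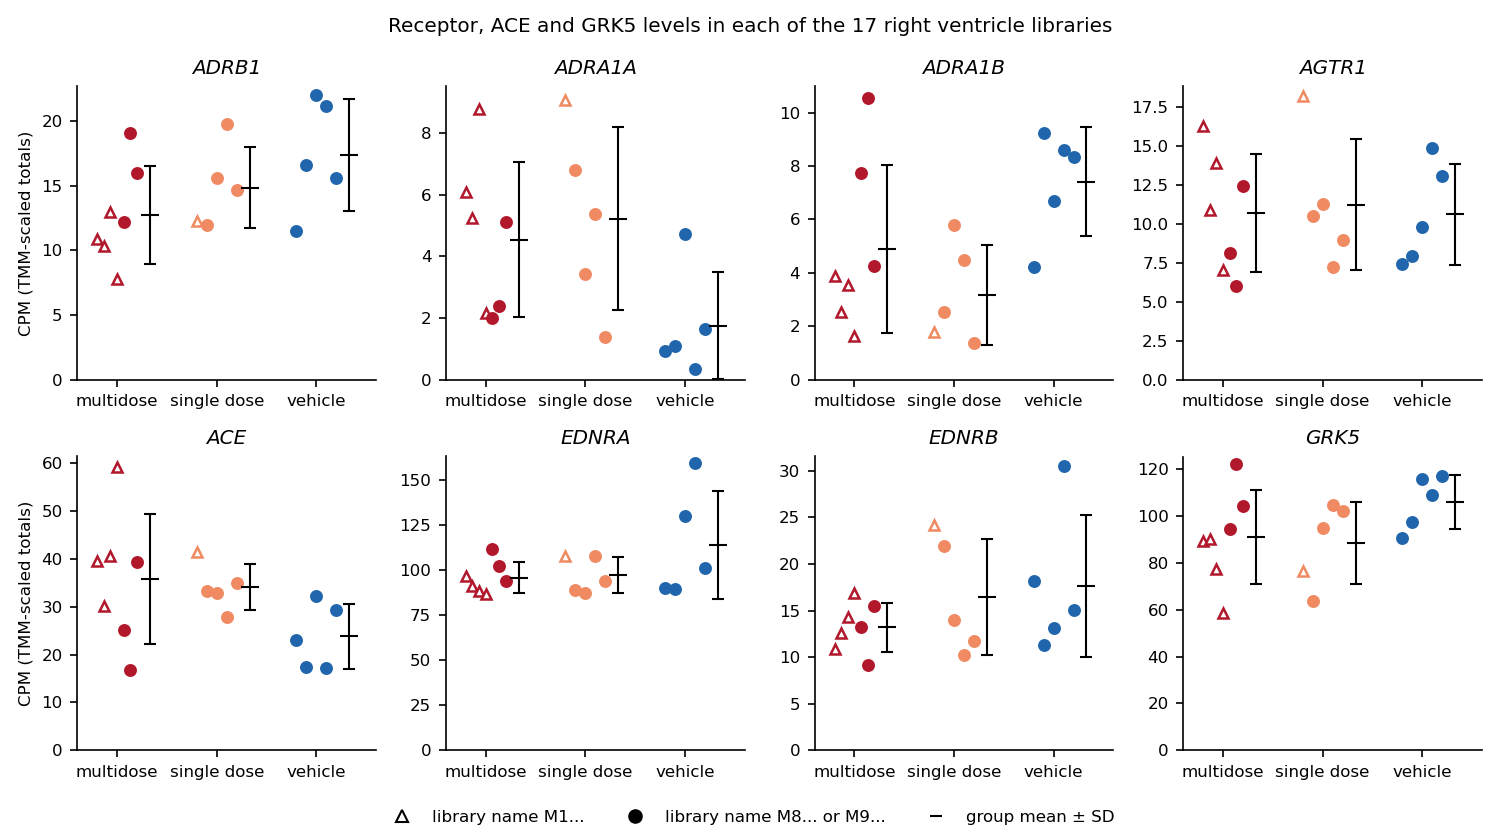
CPM (y axes, linear from 0, a scale per gene) of the 8 genes in each library by group (x axes). Open triangles are M1 libraries, filled circles M8 and M9 libraries, and black bars the group mean ± SD. ADRA1A lay at 4.73 CPM or below in all 5 vehicle controls, and the groups overlap for every gene.

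ADRB1 (ENSSSCG00000010647, chromosome 14, 124400330 to 124401739 on Sscrofa11.1), the main beta receptor of cardiac muscle, ranged from 7.75 to 19.04 CPM with a median of 12.2 CPM in multidose animals. Single dose animals 1 to 5 measured 12.2, 11.98, 15.6, 19.7 and 14.7 CPM. Vehicle controls 1 to 5 measured 11.5, 16.6, 21.97, 21.1 and 15.6 CPM. The 4 multidose M1 libraries lay at or below 12.9 CPM, and the other 3 between 12.2 and 19.04 CPM. The means were 12.7 ± 3.76 CPM (SD, n = 7) for multidose, 14.8 ± 3.14 CPM (SD, n = 5) for single dose and 17.4 ± 4.30 CPM (SD, n = 5) for vehicle. The order of the 3 means was thus multidose, single dose, vehicle, with no neighbouring pair differing beyond the spread between animals. The order of the dosed groups did not hold without the M1 libraries. Their means were then 15.7 ± 3.42 CPM (SD, n = 3) for multidose and 15.5 ± 3.21 CPM (SD, n = 4) for single dose. The log2 fold change of multidose over vehicle was -0.45 (SE 0.20, 95% interval -0.88 to -0.018, adjusted p = 0.389 by edgeR). In the M8 and M9 libraries alone it was -0.15 (SE 0.23). Single dose over vehicle gave -0.23 (SE 0.22, 95% interval -0.69 to 0.24), and -0.17 (SE 0.21) in the M8 and M9 libraries.

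ADRA1A (ENSSSCG00000009661, chromosome 14, 10623391 to 10733378), an alpha-1 receptor gene, was the member with the largest differences between dosed animals and vehicle. Multidose animals ranged from 2.0 to 8.77 CPM with a median of 5.10 CPM. Single dose animals 1 to 5 measured 9.06, 6.80, 3.44, 5.38 and 1.397 CPM. Vehicle controls 1 to 5 measured 0.946, 1.08, 4.73, 0.356 and 1.66 CPM. Vehicle control 3 thus lay inside the range of both dosed groups, while the other 4 controls lay below every multidose animal. These are low counts, between 19 and 329 reads per library. The means were 4.54 ± 2.51 CPM (SD, n = 7) for multidose, 5.22 ± 2.96 CPM (SD, n = 5) for single dose and 1.75 ± 1.73 CPM (SD, n = 5) for vehicle. Multidose over vehicle came to 1.35 on the log2 scale (95% interval 0.16 to 2.54, edgeR SE 0.57 and adjusted p = 0.384), and single dose over vehicle 1.55 (SE 0.60, 95% interval 0.29 to 2.81, adjusted p = 0.891 by edgeR). In the M8 and M9 libraries these values were 0.84 (SE 0.68) and 1.26 (SE 0.63). Vehicle control 3 weighed most on both: without it they were 2.16 and 2.36, still with no call. The lowest values with a library left out were 1.10 for multidose, without vehicle control 4, and 1.27 for single dose, without single dose 1.

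ADRA1B (ENSSSCG00000017041, chromosome 16, 63550123 to 64010838), the other alpha-1 receptor gene of the set, had its lowest mean after a single dose. Multidose animals ranged from 1.64 to 10.5 CPM with a median of 3.90 CPM. Single dose animals 1 to 5 measured 1.79, 2.54, 5.78, 4.47 and 1.38 CPM, and vehicle controls 1 to 5 measured 4.21, 9.24, 6.68, 8.61 and 8.34 CPM. Only vehicle control 1 lay below the highest single dose animal. The means were 4.88 ± 3.14 CPM (SD, n = 7) for multidose, 3.19 ± 1.87 CPM (SD, n = 5) for single dose and 7.42 ± 2.02 CPM (SD, n = 5) for vehicle. Single dose over vehicle came to -1.21 on the log2 scale (95% interval -2.16 to -0.26, edgeR SE 0.45 and adjusted p = 0.891), and -1.07 (SE 0.39) in the M8 and M9 libraries. The multidose value of -0.59 (SE 0.41) stood at 0.010 (SE 0.41) without the M1 libraries. Multidose over single dose gave 0.62 (SE 0.42), and 1.08 (SE 0.43, unadjusted p = 0.0260, adjusted p = 0.99996 by edgeR) in the M8 and M9 libraries.

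Within a library the balance of both alpha-1 genes can be read without scaling between libraries. The log2 ratio of ADRA1A to ADRA1B counts ranged from -2.14 to 1.30 in multidose animals (median 0.41), from -0.75 to 2.32 in single dose animals (median 0.27), and from -4.56 to -0.50 in vehicle controls (median -2.33). All 5 controls had fewer ADRA1A than ADRA1B counts, while 5 of 7 multidose and 4 of 5 single dose libraries had more. Gene length is not part of this ratio, so its sign says nothing of molecule numbers, and it was chosen after the values were seen and is given without a test. All 5 M1 libraries were between 0.41 and 2.32, and in the 7 dosed M8 and M9 libraries the range was -2.14 to 1.42. Within the multidose group the 4 M1 libraries ranged from 0.41 to 1.30. The other 3 multidose libraries were at -1.95, -2.14 and 0.25 (median -1.95), against the control median of -2.33. The 4 single dose M8 and M9 libraries ranged from -0.75 to 1.42 (median 0.14). No control has an M1 name, and the part of name class in the multidose ratios was not tested.

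**Figure D2:**
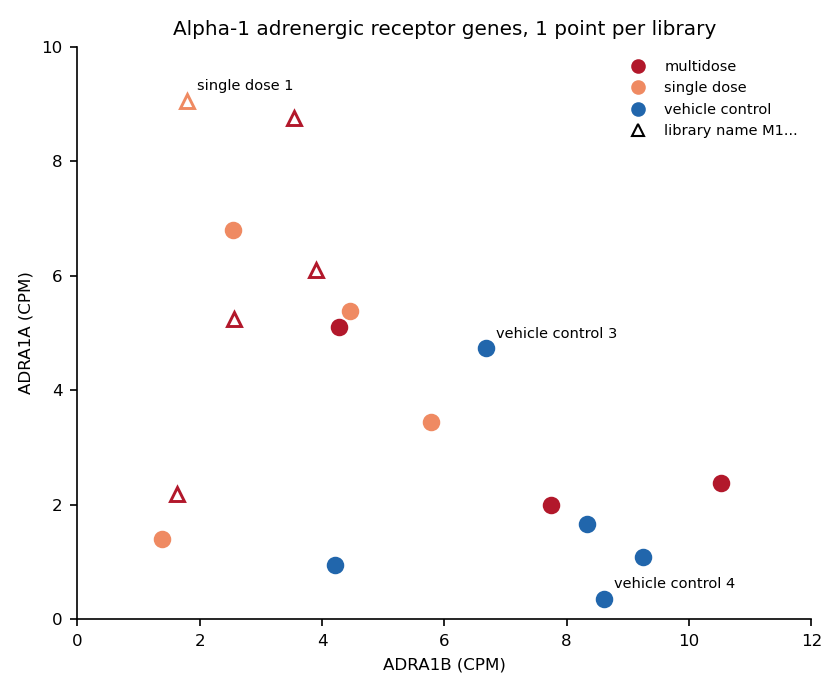
ADRA1A CPM (y axis) against ADRA1B CPM (x axis), 1 point per library, coloured by group, with open triangles for M1 libraries. Vehicle controls lie low on ADRA1A except vehicle control 3 at 4.73 CPM, and all M1 libraries lie at or below 3.90 CPM on ADRA1B.

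GRK5 (ENSSSCG00000010683, chromosome 14, 129113933 to 129351135), the receptor kinase, ranged from 58.6 to 122 CPM with a median of 90.3 CPM in multidose animals. Single dose animals 1 to 5 measured 76.7, 63.8, 94.7, 105 and 102 CPM, and vehicle controls 1 to 5 measured 90.7, 97.4, 116, 109 and 117.1 CPM. The lowest control thus lay above 4 of 7 multidose and 2 of 5 single dose animals. Means were 90.9 ± 19.9 CPM (SD, n = 7), 88.3 ± 17.5 CPM (SD, n = 5) and 106 ± 11.5 CPM (SD, n = 5) for multidose, single dose and vehicle. The log2 fold changes over vehicle were -0.22 for multidose (SE 0.16, 95% interval -0.56 to 0.11) and -0.26 for single dose (SE 0.17, 95% interval -0.63 to 0.10). Without the M1 libraries the multidose value was 0.0028 (SE 0.17) and the single dose value -0.22 (SE 0.16).

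ACE (ENSSSCG00000017296, chromosome 12, 15394487 to 15414609), which converts angiotensin I to angiotensin II, had higher means in both dosed groups than in vehicle controls. Multidose animals ranged from 16.8 to 59.2 CPM with a median of 39.3 CPM. Single dose animals 1 to 5 measured 41.4, 33.2, 32.9, 27.9 and 34.99 CPM, and vehicle controls 1 to 5 measured 23.0, 17.4, 32.1, 17.2 and 29.4 CPM. The lowest single dose animal lay above 3 of the 5 controls, and the lowest multidose animal lay below all 5. The means were 35.8 ± 13.6 CPM (SD, n = 7), 34.1 ± 4.85 CPM (SD, n = 5) and 23.8 ± 6.80 CPM (SD, n = 5) for multidose, single dose and vehicle. Multidose over vehicle came to 0.59 on the log2 scale (95% interval 0.078 to 1.09, edgeR SE 0.24 and adjusted p = 0.384) and single dose over vehicle 0.51 (SE 0.26, 95% interval -0.028 to 1.06, adjusted p = 0.891 by edgeR). In the M8 and M9 libraries these were 0.17 (SE 0.26) and 0.43 (SE 0.24). Of 8 endothelial markers, 2 were positive and 6 negative for multidose over vehicle, and all 8 were negative for single dose over vehicle. The median log2 fold changes of these markers were -0.17 and -0.093, and 0 were called in either comparison. Their summed level was 808 to 1263 CPM in multidose, 942 to 1072 CPM in single dose and 908 to 1522 CPM in vehicle libraries. In bulk tissue, fewer cells of a type and less RNA per cell cannot be told apart. The part of endothelial content in the ACE values was not tested.

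AGTR1 (ENSSSCG00000011695, chromosome 13, 88934873 to 88980317), the angiotensin II type 1 receptor gene, had nearly equal means in the 3 groups. They were 10.7 ± 3.79 CPM (SD, n = 7) for multidose, 11.3 ± 4.21 CPM (SD, n = 5) for single dose and 10.6 ± 3.25 CPM (SD, n = 5) for vehicle. Multidose animals ranged from 6.06 to 16.3 CPM with a median of 10.9 CPM, single dose animals measured 18.3, 10.5, 11.3, 7.28 and 8.95 CPM, and vehicle controls 7.43, 7.97, 9.79, 14.9 and 13.1 CPM. The highest library was single dose 1, an M1 library. The log2 fold change over vehicle was 0.0046 for multidose (SE 0.27, 95% interval -0.55 to 0.56) and 0.077 for single dose (SE 0.29, 95% interval -0.52 to 0.68). Both turned negative in the M8 and M9 libraries, at -0.27 (SE 0.27) and -0.17 (SE 0.25).

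EDNRA (ENSSSCG00000009031, chromosome 8, 81210750 to 81279053), the endothelin type A receptor gene, had a smaller SD in both dosed groups than in controls, a difference that was not tested. Multidose animals ranged from 86.8 to 112 CPM with a median of 93.98 CPM, and single dose animals 1 to 5 measured 108, 88.9, 87.7, 108 and 94.2 CPM. Vehicle controls 1 to 5 measured 90.4, 89.9, 130.0, 159 and 101 CPM. The top 2 of all 17 libraries were vehicle controls 3 and 4, and the other 3 controls lay within the range of both dosed groups. The means were 95.9 ± 8.73 CPM (SD, n = 7), 97.4 ± 10.04 CPM (SD, n = 5) and 114.2 ± 30.1 CPM (SD, n = 5) for multidose, single dose and vehicle. Multidose over vehicle came to -0.25 on the log2 scale (edgeR SE 0.14 and adjusted p = 0.440) and single dose over vehicle -0.23 (SE 0.15, adjusted p = 0.891 by edgeR). Without the M1 libraries they were -0.17 (SE 0.19) and -0.28 (SE 0.18). With only vehicle control 4 left out they shrank to -0.097 for multidose and -0.076 for single dose.

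EDNRB (ENSSSCG00000009477, chromosome 11, 50073300 to 50102879), the type B receptor gene, was likewise highest in vehicle control 4. Multidose animals ranged from 9.20 to 16.9 CPM with a median of 13.3 CPM, single dose animals 1 to 5 measured 24.2, 21.96, 14.0, 10.3 and 11.8 CPM, and vehicle controls 1 to 5 measured 18.1, 11.3, 13.1, 30.5 and 15.1 CPM. Vehicle control 4 also had the highest summed leukocyte markers, at 268 CPM, and the part of that library's makeup in these values was not tested. The means were 13.2 ± 2.64 CPM (SD, n = 7), 16.4 ± 6.24 CPM (SD, n = 5) and 17.6 ± 7.61 CPM (SD, n = 5) for multidose, single dose and vehicle. The log2 fold change over vehicle was -0.41 for multidose (SE 0.25, adjusted p = 0.480 by edgeR) and -0.10 for single dose (SE 0.27, adjusted p = 0.960 by edgeR). In the M8 and M9 libraries the values were -0.49 (SE 0.33) and -0.29 (SE 0.30). Without vehicle control 4 they were -0.12 for multidose and 0.19 for single dose.

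**Figure D3:**
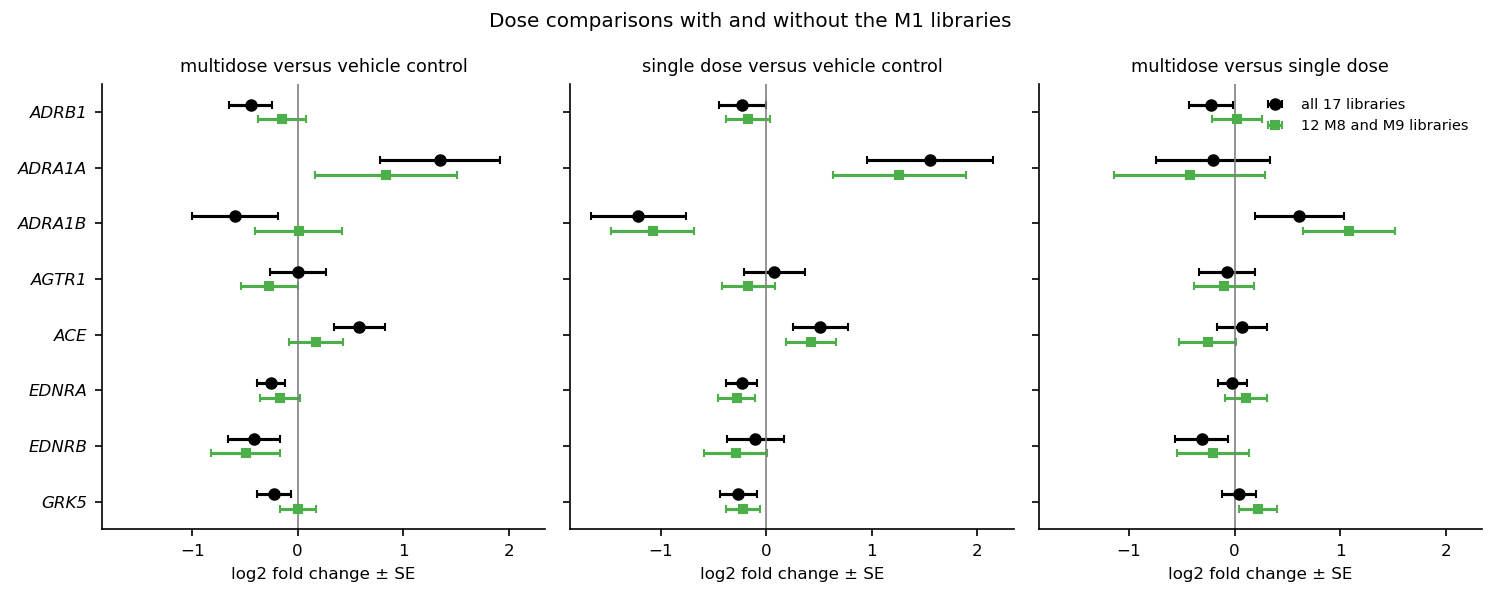
Log2 fold change ± SE (x axes) of each gene (y axis) in the 3 dose comparisons, in all 17 libraries (black circles) and in the 12 M8 and M9 libraries (green squares). For multidose over vehicle, ADRB1 is at -0.45 with all libraries and -0.15 without the M1 libraries, and ADRA1A at 1.35 and 0.84.

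Multidose and single dose animals did not differ detectably in any of the 8 genes. The 7 log2 fold changes other than that of ADRA1B lay between -0.31 for EDNRB and 0.072 for ACE (adjusted p = 0.99998 by edgeR for each of the 8). The 95% interval was narrowest for EDNRA, at -0.31 to 0.27, and widest for ADRA1A, at -1.34 to 0.93. The test therefore does not show that repeated and single doses left these genes alike, least of all for ADRA1A. In the M8 and M9 libraries alone the values of the same 7 genes lay between -0.43 for ADRA1A and 0.22 for GRK5, with -0.26 for ACE, -0.20 for EDNRB, -0.10 for AGTR1, 0.020 for ADRB1 and 0.11 for EDNRA. There 0 of 8 passed in any dose comparison, and 0% of the 16178 genes tested passed in each. An unadjusted p under 0.05 was then held by 0 of 8 for multidose against vehicle, where 3.66% of all genes held it, by 1 (ADRA1B) for single dose against vehicle, with 3.54%, and by 1 (ADRA1B) for multidose against single dose, with 2.58%.

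The comparison by library name set the 5 M1 libraries against the 12 M8 and M9 libraries with dosing group in the model, so the contrast rests on dosed animals. ADRA1B fell in the M1 libraries and was the only 1 of the 8 genes to pass. It measured 1.64 to 3.90 CPM in the 5 M1 libraries, against 1.38 to 10.5 CPM in the 7 dosed M8 and M9 libraries. Its counts were low in the M1 libraries, at 39 to 92 reads each, and 75 to 459 reads in the other dosed libraries. Within the multidose group the 4 M1 libraries measured 3.90, 2.55, 3.54 and 1.64 CPM, all below the 7.75, 10.5 and 4.27 CPM of the other 3. The log2 fold change was -1.26 (SE 0.36, 95% interval -2.02 to -0.50, adjusted p = 0.0286 by edgeR). In this comparison 2220 genes passed, which is 14.0% of all genes, with 8.06% lower, so 1 of 8 is close to the background. The call was lost without multidose 2 (adjusted p = 0.0554), multidose 4 (0.0595), multidose 5 (0.0614), multidose 6 (0.0992) or single dose 1 (0.0720, all by edgeR). In the multidose libraries alone the value was -1.38 (SE 0.37, adjusted p = 0.0647 by edgeR). Of the M1 libraries 4 of 5 are also shallower than every other library, and the part of depth in this value was not tested.

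For 5 of the 8 genes the unadjusted p by name was under 0.05, against 29.9% of all genes. Besides ADRA1B these were ADRB1 at -0.51 (SE 0.19, adjusted p = 0.0767 by edgeR) and GRK5 at -0.38 (SE 0.15, adjusted p = 0.0947 by edgeR) on the lower side. On the higher side were AGTR1 at 0.60 (SE 0.24, adjusted p = 0.104 by edgeR) and ACE at 0.56 (SE 0.23, adjusted p = 0.112 by edgeR). ADRA1A had 0.90 (SE 0.55), EDNRB 0.32 (SE 0.26) and EDNRA -0.056 (SE 0.14). Over 11 alternative settings (left-out libraries aside), ADRB1 ran from -0.67 to -0.17 and GRK5 from -0.50 to -0.12. AGTR1 ran from 0.43 to 0.80 and ACE from 0.56 to 0.74. GRK5 measured 58.6 to 90.3 CPM in the multidose M1 libraries and 94.4 to 122 CPM in the other multidose libraries, which did not overlap. This non-overlap within the multidose group held for 2 of 8 genes, GRK5 and ADRA1B, and for 21.9% of all genes. Over all 12 dosed animals it held for 0 of 8, against 9.32% of all genes. Fibroblast markers were higher in the M1 libraries for 4 of 8 genes (PDGFRA, COL3A1, DCN and DPT) and lower for 0, and their summed level was 4382 to 7778 CPM in M1 and 2718 to 5701 CPM in the other dosed libraries. Schwann and neural markers were higher for 4 of 5, with a summed level of 10.95 to 17.6 CPM in M1 and 3.85 to 14.6 CPM in the other dosed libraries. Of 8 endothelial markers 1 was higher (TEK), and of 8 cardiomyocyte and 8 smooth muscle and pericyte markers 0 passed. Of 8 leukocyte markers 1 was lower, and of 2 adipocyte markers tested 0 passed. Among all genes tested, 5.92% were higher and 8.06% lower by name. The part of these cell types in the values of ACE and AGTR1 was not tested.

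**Figure D4:**
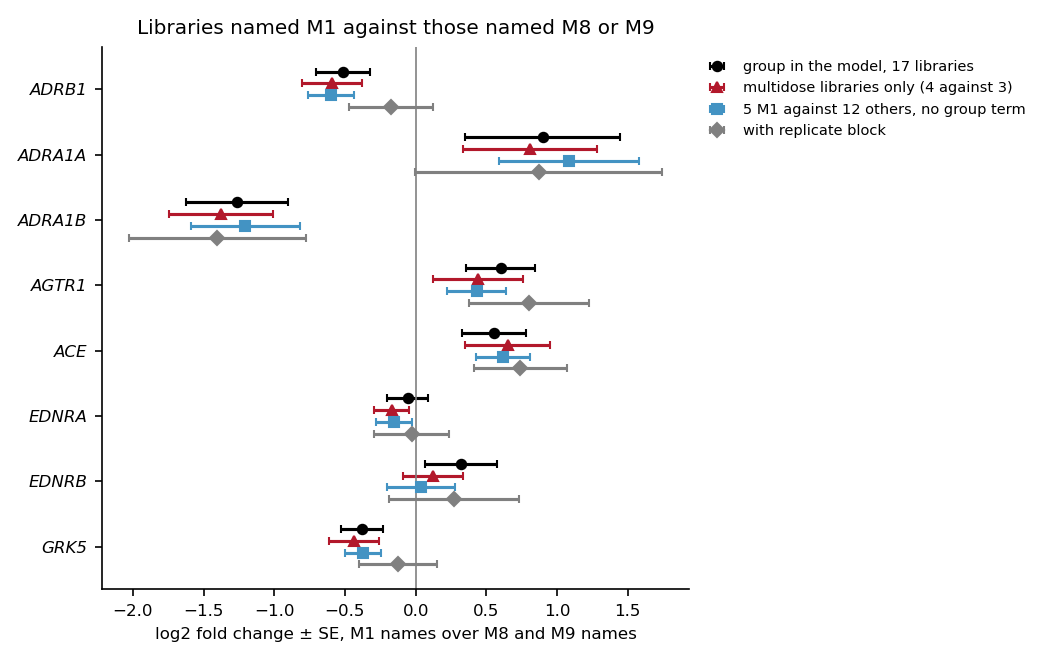
Log2 fold change ± SE (x axis) of M1 libraries over M8 and M9 libraries for each gene (y axis), with group in the model, in the multidose libraries only, with no group term, and with a replicate block. ADRA1B is below 0 in all 4 fits, at -1.26 with group in the model and -1.38 in the multidose libraries.

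The rest of the 3 pathways was described from lists of 64 further genes, of which 49 could be tested. In the dose comparisons 0 of 49 passed, with 5, 3 and 0 at an unadjusted p under 0.05 for multidose against vehicle, single dose against vehicle and multidose against single dose, where 12.6%, 5.26% and 2.11% of all genes stood. The median log2 fold changes of the 49 genes were -0.094, -0.031 and -0.045, against -0.0051, 0.0025 and 0.0018 over all genes tested. ADRA2B, an alpha-2 receptor gene, had the smallest p of the other receptors, with log2 values of -0.68 (SE 0.25) for multidose and -0.51 (SE 0.27) for single dose over vehicle, at 1.76 ± 0.588 CPM in multidose (SD, n = 7) and 2.82 ± 0.387 CPM in vehicle libraries (SD, n = 5). It was followed by ADRA1D, the third alpha-1 receptor gene, at 0.39 (SE 0.33) for multidose. Among ligands, EDN1, which encodes endothelin-1, measured 5.002 ± 1.55 CPM in multidose (SD, n = 7) and 6.32 ± 1.45 CPM in vehicle libraries (SD, n = 5), with log2 values of -0.34 (SE 0.26) and, for single dose, -0.41 (SE 0.29). AGT, the precursor of angiotensin, stood at -0.34 (SE 0.43) and -0.81 (SE 0.47), and MME, a peptidase that degrades angiotensin and endothelin peptides, at 0.75 (SE 0.39) and 0.96 (SE 0.42). GRK2, the other main receptor kinase of the heart, measured 58.1 ± 7.58 CPM in multidose (SD, n = 7) and 67.6 ± 1.69 CPM in vehicle libraries (SD, n = 5), with values of -0.22 (SE 0.10) and -0.15 (SE 0.11). GRK4, another kinase of the family, stood at 0.39 (SE 0.18) for multidose. For single dose the smallest p among regulators were those of the arrestin gene ARRB1 (0.29, SE 0.14) and RCAN1, a calcineurin inhibitor gene (-0.56, SE 0.33). Among effectors, PLN, which encodes the calcium pump inhibitor phospholamban, stood at 0.73 (SE 0.26) and the G protein gene GNA13 at -0.20 (SE 0.087) for multidose. For single dose the phospholipase gene PLCB3 stood at -0.29 (SE 0.12) and the kinase gene PRKCE at -0.42 (SE 0.22). Without the M1 libraries the multidose values were 0.52 for PLN, 0.13 for GRK4, -0.081 for GRK2, 0.17 for MME, 0.90 for ADRA1D and -0.95 for ADRA2B. Between multidose and single dose genes with the smallest p in each list included PLN (0.46, SE 0.26) and the phosphodiesterase gene PDE4D (0.21), RGS4, a regulator of G protein signalling (-0.34), and ARRB1 (-0.16), AGT (0.46) and MME (-0.21), and ADRA2B (-0.17). In the M8 and M9 libraries these were 0.36 for PDE4D, -0.11 for RGS4, -0.29 for ARRB1, -0.94 for MME and -0.47 for ADRA2B, with PLN at 0.50 and AGT at 0.46.

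By library name 2 of the 49 genes were higher and 7 lower, against 5.92% and 8.06% of all genes. ADRA1D had a log2 value of -1.10 (edgeR, SE 0.26, adjusted p = 0.0123), a fall, with means of 6.02 ± 1.96 CPM in the M1 libraries (SD, n = 5) and 11.3 ± 2.61 CPM in the other dosed libraries (SD, n = 7). GRK2 fell by 0.29 (SE 0.090, adjusted p = 0.0385 by edgeR), its means being 52.7 ± 5.51 CPM in the M1 libraries (SD, n = 5) and 63.9 ± 4.21 CPM in the other dosed libraries (SD, n = 7). Of the ligand enzymes, CTSD, a lysosomal protease, fell by 1.26 and ECE1, which makes endothelin, by 0.65 (adjusted p of 0.00446 and 0.0349 by edgeR). The G protein genes GNA11 and GNA12 fell by 0.38 and 0.64. PLCB1, a phospholipase C gene, and PDE4B, a phosphodiesterase that degrades cyclic AMP, rose by 0.65 and 0.60 (adjusted p of 0.0475 and 0.0385 by edgeR). EDN1 and AGT did not pass, with 0.054 (SE 0.30) and 0.22 (SE 0.48).

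Among themselves the 8 genes form 28 pairs, and over the 12 M8 and M9 libraries 0 of 28 correlations of log2 CPM passed a permutation test with Benjamini-Hochberg adjustment over the pairs. At an unadjusted p under 0.05 stood 5 pairs, each with an adjusted p of 0.122. ADRB1 and GRK5 had r = 0.70 (permutation p = 0.00464) and rho = 0.78 (permutation p = 0.00361), and r = 0.69 without vehicle controls 1 and 3, the libraries farthest from the median of ADRB1. ADRB1 and EDNRA had r = 0.64 (permutation p = 0.0217) and rho = 0.61 (permutation p = 0.0397), and r = 0.53 without the same libraries. That value still includes vehicle control 4, the highest library for EDNRA at 159 CPM. How far this pair rests on vehicle control 4 was not tested. ACE had r = 0.66 with ADRA1A (permutation p = 0.0205, rho = 0.55, permutation p = 0.0705) and r = 0.51 without single dose 2 and vehicle control 4. With ADRA1B it had r = -0.65 (permutation p = 0.0207, rho = -0.76, permutation p = 0.00625) and r = -0.66 without single dose 2 and single dose 5. AGTR1 and EDNRB had r = 0.71 (permutation p = 0.00874, rho = 0.71, permutation p = 0.0118), and r = 0.39 without multidose 6 and vehicle control 4. Each library was also centred on the mean of its group. The permutation p of centred values takes no account of the group means removed. It is therefore too small, and cannot decide which pairs stay under 0.05. Centred, ADRB1 had r = 0.74 with GRK5 (permutation p = 0.00568) and r = 0.62 with EDNRA (permutation p = 0.0302). AGTR1 with EDNRB had r = 0.68 (permutation p = 0.0161). ACE then had r = 0.57 with ADRA1A (permutation p = 0.0544) and r = -0.50 with ADRA1B (permutation p = 0.0957), and 0 of 28 pairs passed after adjustment. ADRA1A and ADRA1B had r = -0.27 (permutation p = 0.396, rho = -0.33, permutation p = 0.296), and the M1 libraries enter none of these values.

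**Figure D5:**
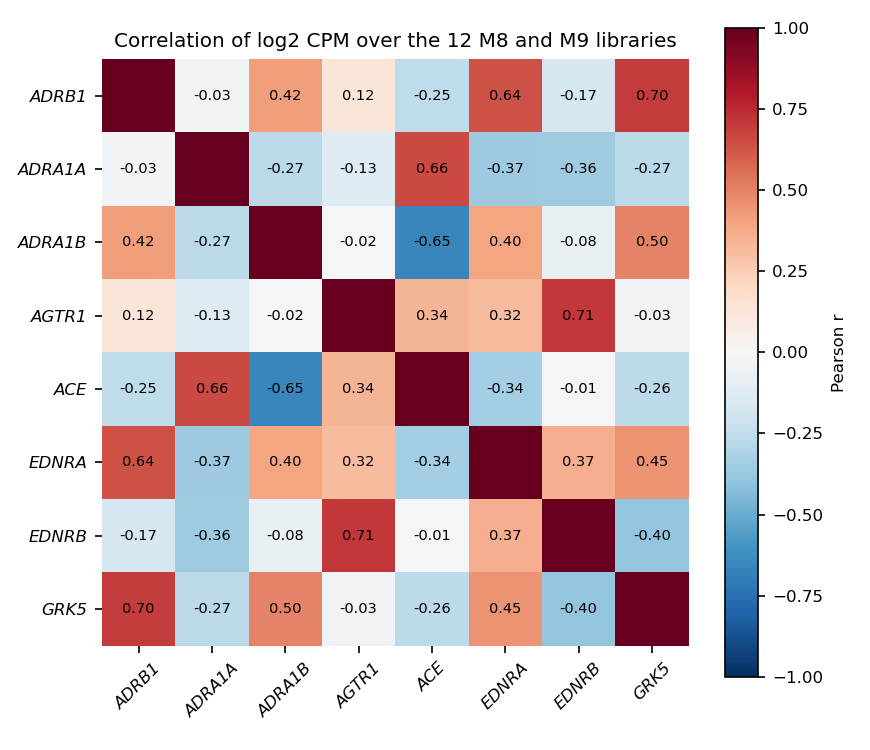
Pearson r of log2 CPM for each pair of the 8 genes over the 12 M8 and M9 libraries, with the value printed in each cell (red positive, blue negative). The highest are 0.71 for AGTR1 with EDNRB and 0.70 for ADRB1 with GRK5, and the lowest is -0.65 for ACE with ADRA1B.

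The genes whose log2 CPM followed each member most closely over the same 12 libraries were picked from the 11424 other named genes whose mean reached 1 CPM. As the highest of so many values, these correlations are a description without a test. They were ZNF318 (0.93) and ACO1 (0.92) for ADRB1, PLEKHA7 (0.94) and TMEM120B (0.91) for ADRA1A, and NEK7 (0.90) and CAB39 (0.87) for ADRA1B. GRK5 was followed by ZNF853 (0.91) and TMEM201 (0.87), ACE by P2RY14 (0.89) and KIF18B (0.89), and AGTR1 by SNAI1 (0.85) and HNRNPH3 (0.85). For EDNRA they were OSBPL11 (0.93) and TMEM214 (0.92), and for EDNRB B3GNT3 (0.95) and IRAK2 (0.94). None of the 8 members was among the closest genes of another.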

How the data were processed

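Right ventricular RNA of 17 pigs was sequenced on an Illumina NextSeq, per the labels' protocols. The table the authors deposited holds raw counts per Ensembl gene, and all values were whole. Build Sscrofa11.1 and, as tools, Subread 1.6.2, HISAT2 2.1.0, Trimmomatic 0.33, SAMtools 1.7 and FastQC 0.11.7 come from the submitters' processing notes. Neither strand setting nor annotation release was found, being not given in the sources used here, so reads of overlapping antisense genes cannot be separated. Sex, weight and batch are not given per library.

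Counts were analysed with R 4.3.3 and edgeR 4.0.16 (filterByExpr, TMM, 1 coefficient per group over all 17 libraries, robust quasi-likelihood fit, two-sided tests, adjustment over all 15884 genes tested, threshold 0.05). The comparison by name added a term for names beginning with M1. SE is the log2 fold change over the root of F. CPM use TMM-scaled totals, and log2 CPM have a prior count of 2. Precision is that of the animals per group. Alternatives were RLE or upper-quartile scaling, other filters, no robust spread, DESeq2 1.42.0, limma-voom 3.58.1, covariates, subsets, a replicate block and each library left out. Correlations used 100000 permutations. The pipeline was tested on simulated data. Same-numbered libraries of different groups were compared by their deviations from the group means. Of 15 pairs, 4 correlated above 0.1 (range -0.22 to 0.41). The highest value was between multidose 1 and single dose 1, both M1 libraries, and the differently numbered multidose 6 and single dose 4 reached 0.51. With name class mixed in, these values cannot decide whether the numbers pair animals.

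The members, lists and tests were chosen with earlier results of these data known. Named were all members, EDN1, AGT and GRK2, list genes that passed (otherwise the 2 with the smallest p per list), and the 2 genes most alike to each member; 2 list genes that the rule names are counted but not reported here. Gene positions come from RefSeq (Sscrofa11.1), with 8 of 8 symbols matched. Of the 64 list genes, 15 were not tested. Sequences were not used here.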

Additional observations from a re-analysis of the deposited data

How the results depend on the processing

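The dose comparisons called 0 genes, at most 1 with a library left out (0 to 1 for single dose against vehicle and for multidose against single dose). DESeq2 called 8 for multidose and 10 for single dose against vehicle, none a member, and the replicate block 1 for multidose. By name 2220 genes were called, with limma-voom 4553, no group terms 3783, multidose libraries only 723, a replicate block 11, and 858 to 2745 with a library left out (858 without single dose 1, 1247 without multidose 6, 1450 without multidose 5). Members called by name were 6 with limma-voom (4553 of 15884 genes called) and 4 with no group terms (3783 of 15884). They were 0 in multidose libraries only (723 of 15326), 0 with the replicate block (11 of 15884), and 0 to 3 with a library left out. Without multidose 7 they were 3 (2249 of 15769 genes called), and without single dose 2 they were 2 (2118 of 16002). Whether replicate numbers pair the animals is not known. With the block ADRA1B stood at -1.40 by name (adjusted p = 0.275, edgeR).

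Values whose sign turned were these. AGTR1, multidose over vehicle, was -0.0077 with no low-count filter, -0.22 with the name suffix as covariate, -0.00082 with the replicate block, -0.35 with the M1 covariate and -0.27 in M8 and M9 libraries; single dose over vehicle it was -0.0069 (block), -0.087 (M1 covariate) and -0.17 (M8 and M9). In M8 and M9 libraries ADRA1B was 0.010 and GRK5 0.0028 for multidose over vehicle. For multidose over single dose, limma-voom gave ADRA1A 0.19, AGTR1 0.065 and GRK5 -0.0090, the block AGTR1 0.0060 and GRK5 -0.096, the M1 covariate ACE -0.16, and M8 and M9 libraries ACE -0.26, ADRB1 0.020 and EDNRA 0.11. By name, EDNRA was 0.0064 with limma-voom and ADRA1A -0.13 with the suffix. Centred on group means, r was 0.13 for ADRB1 with ADRA1A, 0.057 for ADRA1A with ADRA1B and 0.10 for ACE with EDNRB. With a library left out, AGTR1 ran from -0.13 to 0.16 (multidose over vehicle), -0.16 to 0.23 (single dose over vehicle) and -0.20 to 0.17 (multidose over single dose). EDNRB ran from -0.28 to 0.19 for single dose over vehicle, and EDNRA from -0.17 to 0.0052 by name. For multidose over single dose, ADRA1A ran from -0.45 to 0.088, ACE from -0.095 to 0.19, EDNRA from -0.057 to 0.021 and GRK5 from -0.057 to 0.12. The cause was not tested.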
